A study of Homo sapiens with 12 samples.

Results

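Syndecans and glypicans are the membrane-bound heparan sulfate proteoglycans of the cell surface. The 9 genes described here are 4 syndecans (SDC1, SDC2, SDC3 and SDC4) and 5 glypicans (GPC1, GPC2, GPC3, GPC4 and GPC6), chosen by name as family members, out of 22784 gene symbols with expression values. All 9 passed the filter on low values, among the 14839 genes that did. GPC3 did so through vehicle and I-BET 762 libraries only, and GPC4 through its 3 vehicle libraries and 1 I-BET 762 library. The RNA came from SK-UT-1, an established human uterine leiomyosarcoma cell line, a single line in culture. Cells received the DMSO vehicle, 5 µM JQ1 or 5 µM I-BET 762, and total RNA was sequenced after 48 h to ask how inhibition of the BET bromodomain proteins alters the transcriptome. Both compounds fill the acetyl-lysine pocket of BET bromodomains, in JQ1 on a thiophene-fused and in I-BET 762 on a benzene-fused triazolodiazepine scaffold. The labels describe 4 libraries per group. Values were analysed for vehicle replicates 13, 14 and 15, JQ1 replicates 17, 18, 19 and 20 and I-BET 762 replicates 21, 22 and 23, and vehicle replicate 16 and I-BET 762 replicate 24 are not analysed here. Nothing in the labels says that replicates were separate cultures, so p-values measure only the spread between these libraries.

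A proteoglycan of this kind is a core protein that carries long sulfated sugar chains. Syndecans cross the membrane and end in a short cytoplasmic tail that binds scaffold and cytoskeletal proteins, whereas glypicans are held by a lipid (GPI) anchor. The chains bind growth factors, morphogens and matrix proteins and present them to their receptors, and enzymes can trim the chains or cut the core protein off the cell. In mesenchymal cells they are known as co-receptors in adhesion and growth factor signalling.

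Reads on genes numbered 35564590 to 39658988 per library. Values are normalized counts, the authors' read counts divided by a library size factor, and a count of 0 allows up to 3 reads. In these libraries 3 reads amount to between 2.73 and 3.30 normalized counts, a limit that covers counting error only. Known BET inhibitor response genes were checked first. HEXIM1, a transcription elongation inhibitor widely used as a marker of BET inhibition, averaged 1627 normalized counts with vehicle, 4718 with JQ1 and 3370 with I-BET 762. MYC, a transcription factor gene often studied as a BET target, averaged 5176 normalized counts with vehicle, 10372 with JQ1 and 7517 with I-BET 762, and rose with both inhibitors (log2 fold change 1.002, adjusted p = 1.28e-10, and 0.54, adjusted p = 8.22e-07). At an adjusted p under 0.05 in limma, 35.6% of all genes tested fell and 36% rose with JQ1. With I-BET 762, 31.3% fell and 29.9% rose. Of the 10 smooth muscle markers, 9 were in the table and 8 were tested, of which 7 fell with JQ1 and 6 with I-BET 762 while 1, SMTN, rose with each, a call lost at equal library totals. Their summed level was 20925 to 21519 normalized counts in the vehicle libraries, 10871 to 11520 in the JQ1 libraries and 12193 to 12764 in the I-BET 762 libraries. MYH11, a defining marker, is not analysed here, and ACTG2 averaged 1.56 normalized counts with vehicle, 0.504 with JQ1 and 0 with I-BET 762. No endothelial or leukocyte marker passed the filter, and PTPRC, which defines leukocytes, averaged 0 with vehicle, 0 with JQ1 and 0.328 with I-BET 762.

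With JQ1, 2 of the 9 genes rose (SDC2 and SDC4) and 4 fell (SDC1, SDC3, GPC2 and GPC6) at an adjusted p under 0.05 in limma, where 36% of all genes tested were called higher and 35.6% lower. The differentially expressed genes (DEGs), which also changed over 1.5-fold, were SDC2 and SDC4 upward and SDC1 and GPC6 downward, that is 2 higher and 2 lower beside 13.3% and 22.8% of all genes tested. This set depended on the scaling. At equal upper quartiles it was 1 higher (SDC2) and 4 lower (SDC1, SDC3, GPC2 and GPC6), and at equal library totals 1 higher (SDC2) and 6 lower (the same 4 with GPC3 and GPC4). No JQ1 library of GPC3 or GPC4 reached the filter on low values. Both passed it through groups where they are higher, so they add no support for a fall. With I-BET 762, the called genes were again 2 higher (SDC2 and SDC4) and 4 lower (SDC1, SDC3, GPC2 and GPC6), beside 29.9% and 31.3% of all genes, and the DEGs were SDC2 upward and SDC1 and GPC6 downward, beside 8.96% and 17.9%. The 9 members had a median log2 fold change of -0.55 with JQ1 and -0.30 with I-BET 762, and the median over all genes tested was 0.00756 and -0.000634. With every library scaled to the same total, the median of all genes was -0.175 with JQ1 and -0.0969 with I-BET 762, and the share of higher genes among all called ones went from 50.3% to 33.9% and from 48.9% to 37.3%. On that scale 2 members were called higher and 6 lower with JQ1, with GPC3 and GPC4 among the 6. With I-BET 762, 1 was called higher and 4 lower. The 2 comparisons use the same 3 vehicle libraries and are therefore not independent. In bulk RNA, fewer cells that express a gene and less RNA per cell cannot be told apart.

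**Figure D1:**
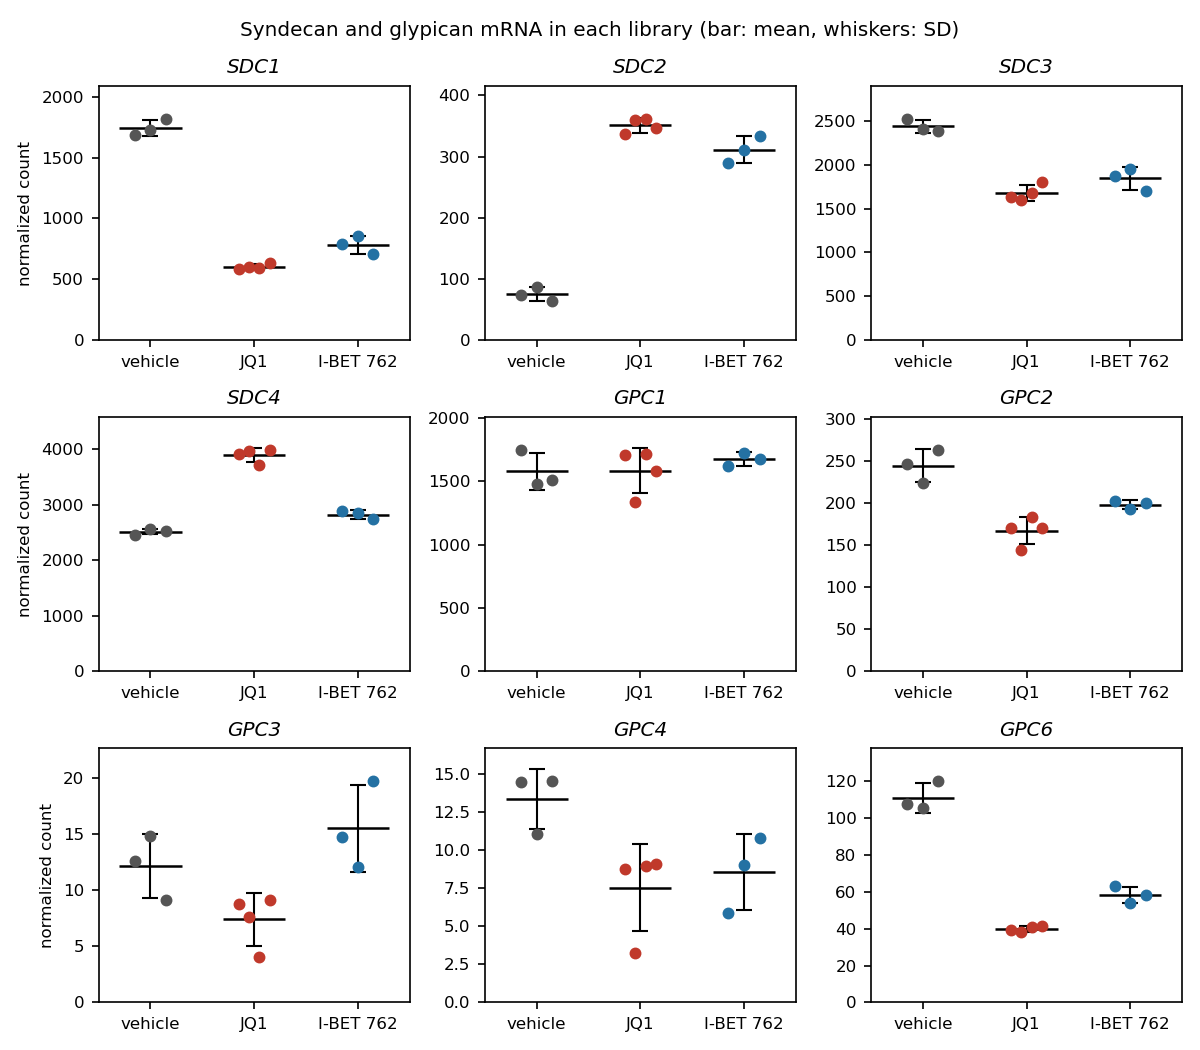
Normalized counts (vertical axis, starting at 0) of the 9 genes in each library, with 3 vehicle, 4 JQ1 and 3 I-BET 762 libraries as points, the group mean as a horizontal bar and the SD as whiskers. SDC1 drops from a mean of 1741 with vehicle to 605.5 with JQ1 and 783.7 with I-BET 762, and SDC2 climbs from 75.4 to 351.1 and 311.3.

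SDC1, known mainly as the syndecan of epithelial and plasma cells and as a co-receptor for growth factors, had the largest fall of the 9. It lies on chromosome 2 (hg38, 20200797 to 20225433, minus strand). Its normalized counts were 1685, 1724 and 1815 in vehicle replicates 13, 14 and 15. They were 587.9, 604.9, 593.3 and 635.9 in JQ1 replicates 17, 18, 19 and 20, and 787.2, 856.2 and 707.8 in I-BET 762 replicates 21, 22 and 23. The 3 groups did not overlap, with vehicle highest and JQ1 lowest. The log2 fold change was -1.52 (SE 0.0678, adjusted p = 1.48e-11) with JQ1 and -1.15 (SE 0.0725, adjusted p = 2.16e-09) with I-BET 762, which is 2.87-fold and 2.23-fold lower. Epithelial markers were lower too: of 5 tested, 4 fell with JQ1 and 5 with I-BET 762, beside 35.6% and 31.3% of all genes tested. The summed level of all 6 was 1231 to 1290 normalized counts in the vehicle libraries, 517.3 to 612.3 under JQ1 and 506.7 to 547.4 under I-BET 762. KRT19 alone averaged 740.8, 245.6 and 190.9. Between the inhibitors 1 of the 5 was called, KRT19, which was higher with JQ1. Of all genes tested, 13.3% were called higher and 14% lower with JQ1 than with I-BET 762. SDC1 was lower with JQ1. The part of the epithelial markers in the fall of SDC1, like that of the smooth muscle markers above, was not tested.

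SDC2, the syndecan best known from mesenchymal cells and a co-receptor in matrix assembly, had the largest rise. The gene is on chromosome 8. It had 74.6, 86.9 and 64.6 normalized counts in vehicle replicates 13, 14 and 15. In JQ1 replicates 17, 18, 19 and 20 it had 336.2, 360.1, 361.2 and 346.9, and in I-BET 762 replicates 21, 22 and 23 it had 289.3, 310.8 and 333.7. Every treated library was above every vehicle library. Each JQ1 library was above each I-BET 762 library, but only narrowly (336.2 against 333.7), and the difference between the inhibitors was not called (adjusted p = 0.245). SDC2 rose by 2.21 on the log2 scale with JQ1 (SE 0.107, adjusted p = 3.87e-11) and by 2.04 with I-BET 762 (SE 0.115, adjusted p = 6.40e-10), or 4.64-fold and 4.11-fold. By size of its log2 fold change it stood at place 121 with JQ1 and 97 with I-BET 762, counted from the highest of the 14839 genes. Mesenchymal markers, whose summed level is almost wholly VIM, had 111083 to 119625 normalized counts in the vehicle libraries, 150467 to 161796 under JQ1 and 124297 to 127206 under I-BET 762. Of the 3, all tested, 2 rose with JQ1 (VIM and FN1) and 1 with I-BET 762 (FN1), beside 36% and 29.9% of all genes tested. VIM was not called with I-BET 762 (log2 fold change 0.12, adjusted p = 0.104). CDH2 was called with neither inhibitor (adjusted p = 0.190 and 0.0772). The part of these markers in the rise of SDC2 was not tested.

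SDC3, described first in neural tissue, was among the more abundant members and fell by less than SDC1. Its locus is on chromosome 1 (30869466 to 30908758, minus strand). Normalized counts were 2516, 2403 and 2384 with vehicle. With JQ1 they were 1632, 1594, 1682 and 1800.3, and with I-BET 762 they were 1874, 1954 and 1703. All treated libraries lay below all vehicle libraries, and the JQ1 and I-BET 762 libraries overlapped. The log2 fold change was -0.54 (SE 0.0585, adjusted p = 5.25e-07) with JQ1 and -0.40 (SE 0.0626, adjusted p = 4.19e-05) with I-BET 762, both under the 1.5-fold limit, which the JQ1 value passed at equal library totals (-0.72) and at equal upper quartiles (-0.60).

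SDC4, a widely expressed syndecan of focal adhesions, had the highest level of the 9 genes per length in every group. It is on chromosome 20 (45325288 to 45348424, minus strand). The vehicle libraries had 2461, 2556 and 2523 normalized counts. The JQ1 libraries had 3916, 3956, 3711 and 3979, and the I-BET 762 libraries 2885, 2846 and 2734. The 3 groups did not overlap, and I-BET 762 stood between vehicle and JQ1. SDC4 rose by 0.63 on the log2 scale with JQ1 (SE 0.0452, adjusted p = 3.87e-09) and by 0.17 with I-BET 762 (SE 0.0483, adjusted p = 0.00714). The call with I-BET 762 was lost when libraries were rescaled to equal totals (log2 fold change 0.07, adjusted p = 0.184).

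The stretches directly upstream of 3 syndecan genes are shown because 2 of these genes fell and 1 rose with the same treatments. RefSeq promoter windows (GRCh38.p14) were examined for 7 of the 9 genes, and not for SDC2 or GPC3. Each run below is the 250 bases before a RefSeq start, 5′ to 3′ on the gene's own strand, and holds 0 bases of any Gencode exon. Capitals mark the GC box, GGGCGG read on either strand, the core of the site for Sp family transcription factors. For SDC1 the most upstream of the 2 listed starts was used (chr2:20225476-20225725), and SDC3 is chr1:30908759-30909008 and SDC4 is chr20:45348425-45348674, all on the minus strand.
SDC1: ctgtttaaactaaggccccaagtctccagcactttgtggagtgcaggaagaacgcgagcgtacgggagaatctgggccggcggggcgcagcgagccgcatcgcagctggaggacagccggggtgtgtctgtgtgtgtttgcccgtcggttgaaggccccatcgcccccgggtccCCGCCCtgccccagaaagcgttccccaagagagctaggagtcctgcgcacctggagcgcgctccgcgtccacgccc
SDC3: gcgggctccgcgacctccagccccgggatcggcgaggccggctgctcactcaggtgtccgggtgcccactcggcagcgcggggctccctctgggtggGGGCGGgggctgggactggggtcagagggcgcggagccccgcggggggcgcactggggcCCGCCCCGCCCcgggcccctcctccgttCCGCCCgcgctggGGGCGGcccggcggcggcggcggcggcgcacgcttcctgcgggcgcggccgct
SDC4: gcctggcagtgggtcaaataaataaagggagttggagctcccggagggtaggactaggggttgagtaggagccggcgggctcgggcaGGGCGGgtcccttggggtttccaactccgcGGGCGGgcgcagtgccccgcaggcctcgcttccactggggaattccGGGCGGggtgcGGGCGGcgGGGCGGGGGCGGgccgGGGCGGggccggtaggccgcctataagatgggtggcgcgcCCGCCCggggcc
The SDC1 run held 1 GC box match, the SDC3 run 5 and the SDC4 run 8, with matches that share bases counted separately, and 42.6% of all 35116 promoter windows of this length held at least 1. None of the 3 runs held the TATA box letters TATAAA on either strand, found in 10.7% of all windows. None held the CCAAT box either, found in 32%, nor the E-box CACGTG, found in 6.34%. Guanine and cytosine made up 66.4% of the SDC1 run, 83.6% of the SDC3 run and 73.6% of the SDC4 run, and the median over all windows was 58.0%. A match describes the letters only, and these data hold no measurement of binding.

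Of the 5 glypicans described here, 0 were called higher and 2 lower with each inhibitor. This count leaves out GPC5, a glypican outside the set. GPC5 had more reads with both inhibitors but passed the filter only through treated libraries, and is described below. Over all genes tested, 36% were called higher and 35.6% lower with JQ1, and 29.9% and 31.3% with I-BET 762. GPC1, which anchors growth factor binding at the surface of many tumour cells, is on chromosome 2 (240435663 to 240468076, plus strand). It had 1744, 1479 and 1511 normalized counts with vehicle. It had 1708, 1335, 1714 and 1579 with JQ1 and 1617, 1724 and 1677 with I-BET 762. The groups overlapped. The log2 difference from vehicle was 0.00 with JQ1 (95% interval -0.17 to 0.18, adjusted p = 0.984) and 0.09 with I-BET 762 (95% interval -0.10 to 0.27, adjusted p = 0.401), and both signs turned at equal library totals. A larger shift than these intervals cover was not seen, which does not show that the level was the same.

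GPC2, a glypican of developing neurons, is on chromosome 7 (100169606 to 100177381, minus strand). The vehicle libraries had 247.0, 223.7 and 263.0 normalized counts. With JQ1 it had 170.3, 144.7, 183.1 and 170.4, and with I-BET 762 it had 202.7, 192.5 and 199.8. The groups did not overlap, with vehicle highest. GPC2 fell with JQ1 (log2 fold change -0.55, SE 0.105, adjusted p = 0.000208) and with I-BET 762 (-0.30, SE 0.112, adjusted p = 0.0305). The second call did not last when a single library was left out: it was lost without vehicle replicate 13 (adjusted p = 0.0723), vehicle replicate 15 (0.122), or I-BET 762 replicate 21 (0.0547), 22 (0.0873) or 23 (0.0613).

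GPC6 lies on chromosome 13 (93226807 to 94408020, plus strand) and is a glypican of mesenchymal tissues. Its normalized counts were 107.5, 105.4 and 120.1 with vehicle. They were 39.6, 38.1, 41.02 and 41.6 with JQ1, and 63.0, 54.1 and 58.1 with I-BET 762. The 3 groups did not overlap, with JQ1 lowest. GPC6 fell with JQ1 (log2 fold change -1.45, SE 0.146, adjusted p = 2.27e-07) and with I-BET 762 (-0.92, SE 0.156, adjusted p = 0.000106), or 2.73-fold and 1.89-fold. Of its exon bases, 511 (7.18%) lie under a long non-coding RNA gene on the opposite strand. The library kit keeps strand, but whether counting used it is not given in the sources used here, so reads of that stretch cannot be told apart.

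GPC3 and GPC4 lie beside each other on chromosome X (GPC4 from 133300103 to 133415489 and GPC3 from 133535745 to 133987100, both on the minus strand) and were detected at a few reads per library. GPC3, known as a fetal and liver tumour antigen, had 12.6, 14.8 and 9.10 normalized counts with vehicle, 8.79, 7.62, 4.002 and 9.13 with JQ1, and 14.8, 12.0 and 19.7 with I-BET 762. Vehicle overlapped both treated groups. Its log2 difference from vehicle was -0.68 with JQ1 (95% interval -1.44 to 0.08, adjusted p = 0.0995) and 0.32 with I-BET 762 (95% interval -0.49 to 1.13, adjusted p = 0.481). GPC4 had 14.5, 11.1 and 14.6 normalized counts with vehicle, 8.79, 3.26, 9.004 and 9.13 with JQ1, and 5.90, 9.02 and 10.8 with I-BET 762. All treated libraries of GPC4 lay below all vehicle libraries, yet the log2 difference was -0.83 with JQ1 (95% interval -1.66 to 0.01, adjusted p = 0.0705) and -0.61 with I-BET 762 (95% interval -1.50 to 0.28, adjusted p = 0.220). Without JQ1 replicate 18 the value with JQ1 was -0.52 (adjusted p = 0.205), and at equal library totals it was -0.99 (adjusted p = 0.0354). GPC3 with JQ1 was -0.45 without JQ1 replicate 19 (adjusted p = 0.259) and -0.85 at equal totals (adjusted p = 0.0425). These genes rest on 3 to 20 reads per library. No JQ1 library of either reached the filter on low values, which both passed through groups where they are higher. The calls at equal totals therefore add no support for a fall with JQ1.

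Between the 2 inhibitors at the matched dose of 5 µM and time of 48 h, 1 of the 9 genes was called higher with JQ1 (SDC4) and 3 lower (SDC1, GPC3 and GPC6), beside 13.3% and 14% of all genes tested. With the 1.5-fold limit 0 were higher and 1, GPC3, was lower, beside 1.73% and 3.59%. SDC4 was higher with JQ1 than with I-BET 762 by 0.46 on the log2 scale (SE 0.0452, adjusted p = 4.25e-06). SDC1 differed by -0.37 (SE 0.0678, adjusted p = 0.00100) and GPC6 by -0.53 (SE 0.146, adjusted p = 0.0138), so both stood lower with JQ1. The GPC6 call was lost without I-BET 762 replicate 21 (adjusted p = 0.0665). GPC3 differed by -1.002 (SE 0.356, adjusted p = 0.0478), a call that rests on 4 to 9 reads in each JQ1 library and 12 to 20 in each I-BET 762 library and was lost on leaving out any single library other than JQ1 replicate 20, with an adjusted p of up to 0.183. No JQ1 library of GPC3 reached the filter on low values, which it passed through libraries that include the group where it is high. For SDC2 the 95% interval of the difference was -0.05 to 0.40 (adjusted p = 0.245), for SDC3 -0.26 to -0.01 (adjusted p = 0.0990), for GPC2 -0.47 to -0.03 (adjusted p = 0.0898), for GPC1 -0.26 to 0.09 (adjusted p = 0.470) and for GPC4 -1.05 to 0.62 (adjusted p = 0.726), which leaves room for differences in these 5 genes.

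**Figure D2:**
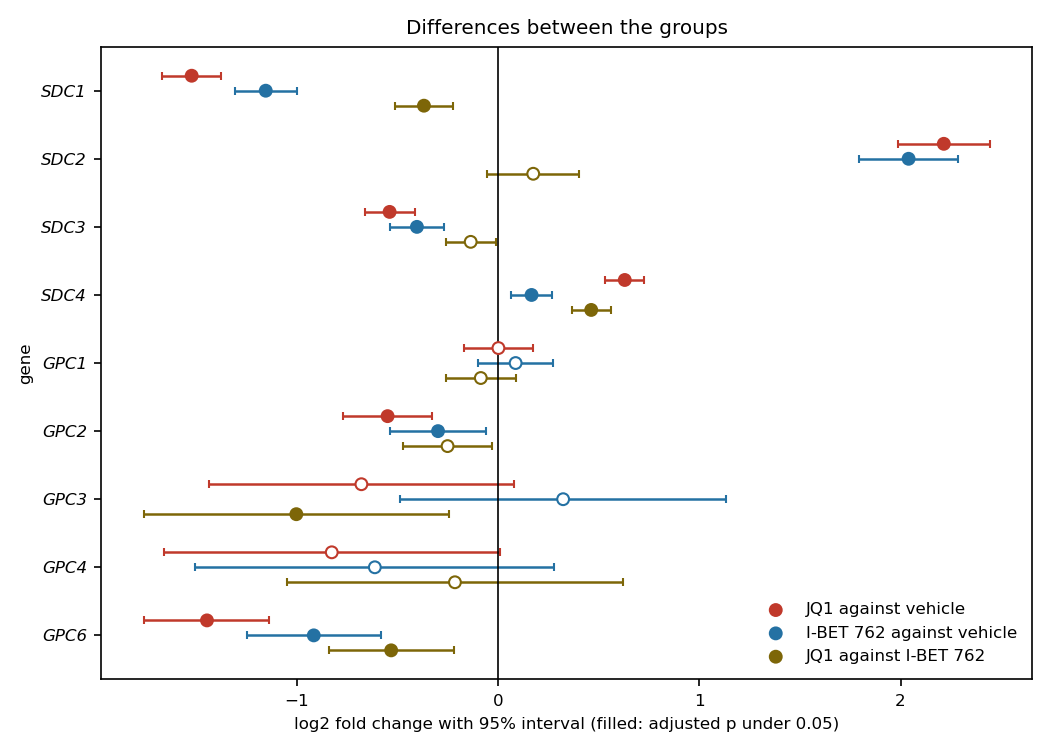
Log2 fold changes of the 9 genes (horizontal axis) with 95% intervals for each inhibitor against vehicle and for JQ1 against I-BET 762, filled where the adjusted p was under 0.05. SDC2 stands near 2 with both inhibitors, SDC1 and GPC6 lie left of 0 in all 3 comparisons, and the intervals of GPC3 and GPC4 are the widest.

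Levels of different genes were compared per kilobase of exon. With vehicle the order was SDC4 (962 ± 18.5 normalized counts per kilobase, SD, n = 3), SDC1 (482 ± 18.4), SDC3 (345 ± 10.1), GPC1 (242 ± 22.2), GPC2 (63.7 ± 5.15), SDC2 (18.5 ± 2.73), GPC6 (15.6 ± 1.12), GPC3 (3.71 ± 0.875) and GPC4 (2.70 ± 0.402). The libraries of SDC2 and GPC6 overlapped, as did those of GPC3 and GPC4, and SDC3 and GPC1 changed places when the longest transcript was used as the length. With JQ1, SDC4 led at 1489 ± 46.9 (n = 4), followed by GPC1 (243 ± 27.2) and SDC3 (237 ± 12.7), whose libraries overlapped, then SDC1 (168 ± 5.95), SDC2 (86.0 ± 2.90) and GPC2 (43.6 ± 4.197). With I-BET 762 the order was SDC4 (1080 ± 30.1, n = 3), SDC3 (261 ± 18.1) and GPC1 (256 ± 8.28), which overlapped, then SDC1 (217 ± 20.6), SDC2 (76.2 ± 5.44) and GPC2 (51.7 ± 1.37). The nearness of GPC1 and SDC3 depended on the length used. With the longest transcript, GPC1 averaged 426 and SDC3 262 with JQ1, and 450 and 288 with I-BET 762. SDC1 thus moved from place 2 to place 4 with either inhibitor, and SDC2 passed GPC2. Among the 14394 tested genes with an exon length, SDC1 stood at percentile 76.6 of the level per kilobase with vehicle, 51.9 with JQ1 and 57.5 with I-BET 762, and SDC2 at percentile 18.5, 39.8 and 37.7.

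Summed over the family, syndecan mRNA per kilobase was 1807 ± 21.0 (SD, n = 3) with vehicle, 1980 ± 53.2 (n = 4) with JQ1 and 1634 ± 60.7 (n = 3) with I-BET 762, and the libraries of the 3 groups did not overlap. The place of JQ1 depended on the scaling: at equal library totals the pool was 1944 ± 16.0 with vehicle, 1874 ± 74.4 with JQ1 and 1644 ± 46.0 with I-BET 762, so I-BET 762 stayed lowest while JQ1 no longer stood above vehicle. Shares of the pool do not depend on the scaling. Within the pool, SDC4 made up 53.2% ± 0.539 with vehicle, 75.2% ± 0.811 with JQ1 and 66.1% ± 1.07 with I-BET 762. SDC1 made up 26.7% ± 0.790, 8.46% ± 0.184 and 13.3% ± 0.804 in the same order, SDC3 19.1% ± 0.786, 12.0% ± 0.586 and 16.0% ± 0.536, and SDC2 1.02% ± 0.151, 4.35% ± 0.223 and 4.68% ± 0.491. The glypican pool, counted with GPC5, was 328 ± 24.1 with vehicle, 299 ± 30.4 with JQ1 and 326 ± 6.59 with I-BET 762, and these libraries overlapped. The overlap of JQ1 with vehicle depended on the scaling. At equal library totals the pool was 353 ± 32.7 with vehicle, 283 ± 35.9 with JQ1 and 328 ± 8.43 with I-BET 762. There the JQ1 libraries (at most 307.8) lay below the vehicle libraries (at least 325.7), as they did at equal upper quartiles (313.8 and 319.5). GPC1 held 73.7% ± 1.84, 81.2% ± 0.913 and 78.7% ± 1.26 of the glypican pool at the reported scaling. JQ1 replicate 18 had the smallest glypican pool of all libraries at 256.0 normalized counts per kilobase, with the lowest GPC1, GPC2 and GPC4 of the JQ1 libraries. Without it the GPC1 share with JQ1 was 81.6% ± 0.510 (n = 3).

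**Figure D3:**
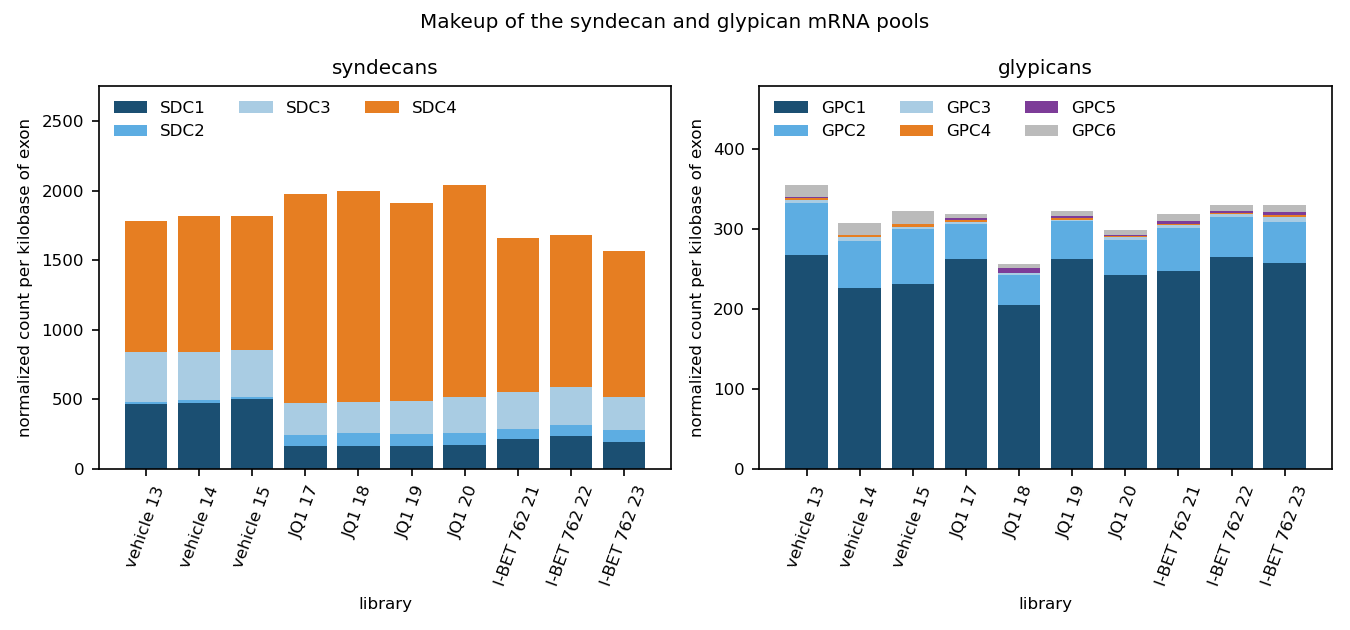
Stacked bars of normalized counts per kilobase of exon for the syndecans (left) and for the glypicans with GPC5 (right) in each of the 10 libraries. SDC4 takes 75.2% of the syndecan pool with JQ1 against 53.2% with vehicle, and GPC1 makes up most of every glypican bar.

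The sixth glypican, GPC5, is not among the 9 and was counted with the other heparan sulfate proteoglycans. It had 3, 2 and 0 reads in the vehicle libraries, which is at the floor. It had 9, 17, 9 and 6 reads in the JQ1 libraries and 11, 8 and 14 in the I-BET 762 libraries. Its mean was 3.74 times the floor of 3 reads with JQ1 and 3.74 times with I-BET 762. This ratio leaves out the counting error of these few reads and is not a lower limit. It passed the filter only through treated libraries. Of the 7 tested genes in that list, 2 rose (COL18A1 and GPC5) and 3 fell with JQ1, and 3 rose and 3 fell with I-BET 762, with a list median of -0.28 and -0.10, which is the same with GPC5 taken at that ratio. At equal library totals 2 rose and 4 fell with JQ1, and 2 rose and 3 fell with I-BET 762. The counts over all genes tested, at the reported scaling, stand beside this and every list below. With JQ1 36% were called higher and 35.6% lower, and with I-BET 762 29.9% and 31.3%. Medians over all genes were 0.00756 and -0.000634. The basement membrane core protein HSPG2 (perlecan) averaged 1238 normalized counts with vehicle and fell with both inhibitors (log2 fold change -0.69 with JQ1, adjusted p = 2.69e-05, and -0.61 with I-BET 762, adjusted p = 0.000273). NRP1, a part-time proteoglycan and co-receptor for VEGF and semaphorins, fell further, from 943 normalized counts to 138 with JQ1 (log2 fold change -2.77) and 213 with I-BET 762 (-2.14). COL18A1, a collagen that carries such chains, rose by 0.62 and 0.78.

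Of the enzymes that build the sugar chain and supply its precursors, 22 of 32 listed were tested, of which 13 rose and 8 fell with JQ1 and 10 rose and 7 fell with I-BET 762. The list medians were 0.27 and 0.18, and at equal library totals 10 rose and 9 fell with JQ1 and 10 rose and 10 fell with I-BET 762. GLCE, the epimerase that turns glucuronic into iduronic acid, rose from 2097 ± 80.8 normalized counts (SD, n = 3) to 5925 ± 278 (n = 4) with JQ1 and 5541 ± 208 (n = 3) with I-BET 762. NDST2, an N-deacetylase and N-sulfotransferase, rose from 5.89 ± 2.66 to 16.8 ± 4.67 and 14.3 ± 1.28, and passed the filter only through treated libraries. B3GAT3, which finishes the linker that joins chain and core, rose by 0.96 and 0.65 on the log2 scale. EXTL1, an exostosin-like glycosyltransferase, fell from 121.5 ± 28.1 to 25.5 ± 7.49 and 47.5 ± 6.53. EXTL2 fell with both inhibitors (log2 fold change -0.78 and -0.74), as did PAPSS2, which makes the sulfate donor (-0.99 and -0.68). EXT1, a subunit of the chain polymerase, rose with JQ1 by 0.25 (adjusted p = 0.00383) and differed by 0.09 with I-BET 762 (adjusted p = 0.314), and the former call was lost at equal totals (adjusted p = 0.504).

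Enzymes that edit or degrade finished chains numbered 11, all tested, of which 3 rose and 5 fell with JQ1 and 2 rose and 4 fell with I-BET 762 (medians -0.20 and -0.02). At equal library totals 1 rose and 6 fell with JQ1, and 1 rose and 4 fell with I-BET 762. SULF1, a surface sulfatase that removes 6-O-sulfate groups, fell from 41.1 ± 3.36 normalized counts (SD, n = 3) to 5.57 ± 2.02 (n = 4) with JQ1 and 12.9 ± 2.77 (n = 3) with I-BET 762. Its relative SULF2 fell with JQ1 (log2 fold change -0.56, adjusted p = 6.42e-06) and differed by 0.06 with I-BET 762 (adjusted p = 0.544), and the difference between the inhibitors was -0.62 (adjusted p = 3.25e-05). Heparanase, HPSE, which cleaves the chains, fell with both (log2 fold change -1.354 and -0.90), as did the lysosomal sulfatase ARSG (-0.74 and -0.85).

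Among 11 tested genes of core protein shedding and release, 5 rose and 5 fell with JQ1 and 5 rose and 4 fell with I-BET 762 (medians 0.19 and 0.02). The membrane protease ADAM17, a known sheddase, rose by 0.30 (adjusted p = 2.54e-05) and 0.16 (adjusted p = 0.0116), the latter call being lost at equal totals (adjusted p = 0.231). TIMP3, an inhibitor of such proteases, rose from 502.7 ± 35.9 normalized counts (SD, n = 3) to 1428 ± 90.3 (n = 4) and 1260.3 ± 77.0 (n = 3). GDPD5, one of the GDE phosphodiesterases that cut GPI anchors, rose by 0.91 and 0.96. NOTUM, which removes lipid from Wnt proteins and was first described as releasing glypicans, fell from 33.5 ± 5.93 to 13.9 ± 4.81 and 9.22 ± 2.95. The matrix protease MMP2 fell with both (log2 fold change -1.13 and -1.004), as did the proprotein convertase FURIN (-0.86 and -1.101).

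Of 14 proteins that bind syndecan tails or act with them, all tested, 9 rose and 3 fell with JQ1 and 7 rose and 3 fell with I-BET 762 (medians 0.15 and 0.12). At equal library totals 6 rose and 4 fell with each. At the reported scaling, 36% of all genes tested rose and 35.6% fell with JQ1, and 29.9% and 31.3% with I-BET 762. Syntenin, SDCBP, the PDZ scaffold of all syndecan tails, rose by 0.66 with JQ1 (adjusted p = 2.00e-07) and 0.42 with I-BET 762 (adjusted p = 9.65e-05). TIAM1, a Rac exchange factor, rose from 1407 ± 53.4 normalized counts (SD, n = 3) to 2899 ± 129 (n = 4) and 2932 ± 60.7 (n = 3). The kinase SRC fell from 1081 ± 20.8 to 482.1 ± 56.5 and 520.7 ± 22.1, and SDCBP2, the second syntenin, fell with both (log2 fold change -0.84 and -1.16).

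Heparan sulfate-binding ligands had 17 of 24 members tested, of which 10 rose and 5 fell with JQ1 and 7 rose and 6 fell with I-BET 762 (medians 0.57 and 0.19). The guidance factor SLIT2 rose from 5.23 ± 3.37 normalized counts (SD, n = 3) to 49.1 ± 12.5 (n = 4) with JQ1 and 33.0 ± 0.797 (n = 3) with I-BET 762. SLIT2 and AREG, another ligand of the list, passed the filter only through treated libraries. FGF18 rose from 30.1 ± 5.95 to 179.2 ± 21.6 and 144.3 ± 7.17, and HBEGF, a ligand of the EGF receptor, from 101.8 ± 3.23 to 363.9 ± 32.5 and 270.6 ± 25.7. In the other direction, the matrix protein THBS1 fell with both inhibitors (log2 fold change -2.13 and -2.42), as did the morphogen BMP4 (-1.88 and -2.21) and the growth factor HDGF (-1.12 and -0.87). Of the chondroitin and dermatan sulfate proteoglycans and their enzymes, 6 of 14 were tested. With each inhibitor 2 rose and 1 fell, the latter being CSPG4, a melanoma-associated surface proteoglycan, with a log2 fold change of -1.31 with JQ1 and -0.67 with I-BET 762 (list medians 0.04 and 0.15), and at equal library totals 1 rose and 1 fell with JQ1.

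**Figure D4:**
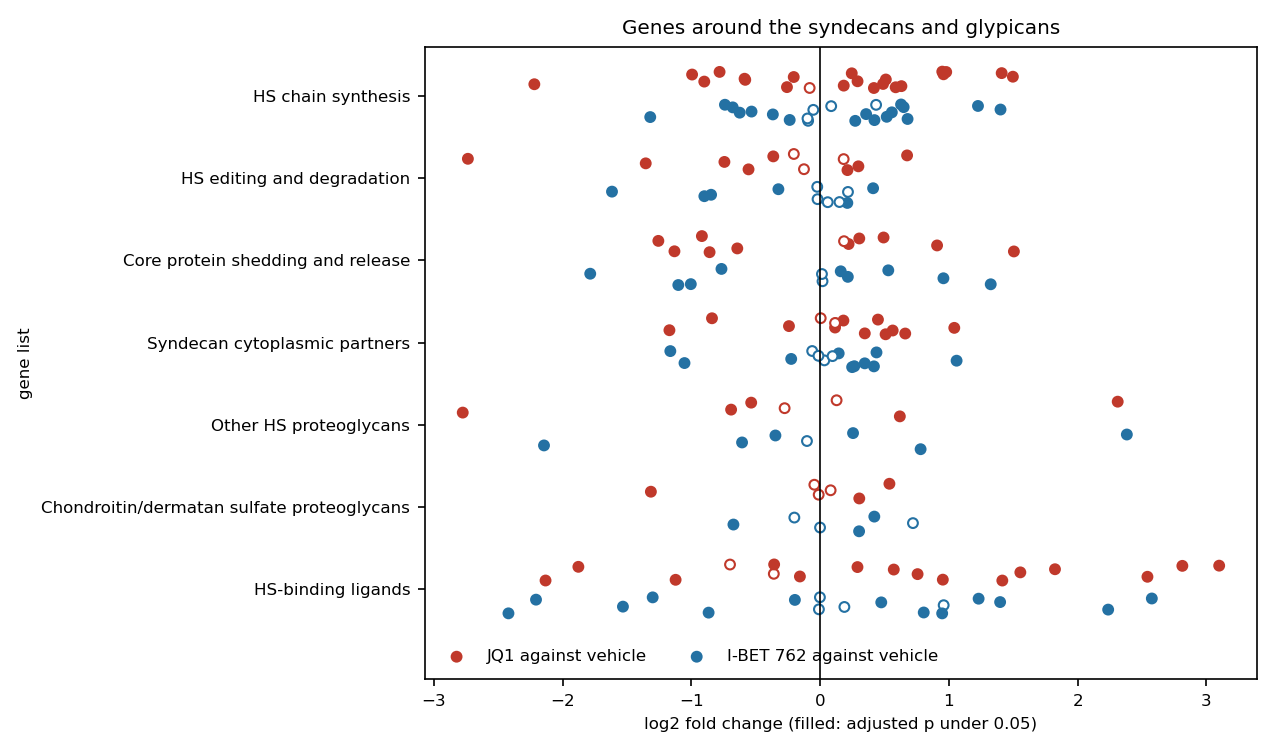
Log2 fold changes against vehicle (horizontal axis) of the tested genes in 7 lists around the syndecans and glypicans, with JQ1 in red and I-BET 762 in blue and filled points where the adjusted p was under 0.05; vertical position within a list only separates the points, and GPC5 is drawn at its fitted value. Every list holds genes on both sides of 0, from NRP1 at -2.77 to SLIT2 at 3.10 with JQ1.

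The genes whose log2 values over the 10 libraries were most like those of SDC2 were AP4E1 (Pearson's r 0.997), KHDRBS3 (0.997) and LRCH3 (0.997), and those most like SDC1 were XAF1 (0.998), MAPK3 (0.997) and PRDX2 (0.997). The libraries fall into 3 treatment groups and share their scaling, and 1122 genes had an r over 0.95 with SDC2 and 1597 with SDC1, so these are descriptions with no test.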

How the data were processed

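Per the labels and the study's methods, strand-specific total RNA libraries of SK-UT-1 cells were sequenced, and the authors trimmed reads with Trimmomatic, aligned them to hg38 with HISAT2 2.2.1, counted genes with featureCounts 2.0.3 on a Gencode annotation, left out outlier samples and scaled the counts with DESeq2. What was deposited is one log2 value, taken after adding 1 to the scaled count, for each of 22784 symbols in 10 libraries, between 0 and 20.5. Undoing the log2 gave whole reads (within 0.02) for 99.7% to 99.8% of the values of each library, and 65 symbols were not whole reads in at least 1 library. How gene identifiers were merged into symbols is not given in the sources used here.

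Groups follow the treatment given in each library's label. Genes with a normalized count of at least 10 in at least 3 libraries (14839) were fitted on the log2 values with limma 3.58.1 in R 4.3.3, all 10 libraries in one model with an intensity trend, and p-values were adjusted by the Benjamini-Hochberg method over all genes tested in each comparison. A called gene had an adjusted p under 0.05, and a DEG also changed over 1.5-fold. Fold changes are on the log2(normalized count + 1) scale and understate changes of low genes. The limma code was tested on simulated data. Exon lengths came from Gencode V44 on hg38 and promoter windows from RefSeq, and tables were made with Python 3.11.15, pandas 2.3.3 and numpy 2.4.6. In each of the 12 replicate pairs the counts differed by more than sampling noise (chi-square per gene 2.74 to 20.9), so each library was counted once.

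The members, the gene lists and the tests were chosen with earlier results of these data known. Named are all 9 members, from each list at most the 3 genes per direction that were DEGs with both inhibitors and had the largest smaller change, a few direct partners of the members (SDCBP, NOTUM, ADAM17, HSPG2, EXT1, SULF1 and SULF2), and the 3 genes most correlated with SDC2 and with SDC1. Alternatives were pseudocounts of 0.5 and 5, all genes above 0, a mean of at least 100, equal totals, equal upper quartiles, no intensity trend, a model of only the 2 groups compared, limma-voom on the recovered reads, leaving out each library, the 1.5-fold limit and, for levels, the longest transcript.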

Additional observations from a re-analysis of the deposited data

Results flagged for a closer look

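GPC4 was flagged for a library far from the others of its group. With JQ1 its lowest value, 3.26 normalized counts in replicate 18, stood apart from the other 3 libraries (8.79 to 9.13) by a gap of 0.961 of the group's whole range on the log2 scale. That value is 3 reads. Of 9 groups of this size examined, 1 per gene, 1 was flagged, and chance flags about 1 in 20. Without this library the log2 difference of GPC4 between JQ1 and I-BET 762 was 0.09 (adjusted p = 0.879), against -0.21 with it, and the log2 difference between JQ1 and vehicle was -0.52 (adjusted p = 0.205), against -0.83 with it (adjusted p = 0.0705).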

How the results depend on the processing

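The count of called members kept within 1.5 times its value of 6 with JQ1 under every alternative run, from 4 (with the 1.5-fold limit) to 8 (equal totals). With I-BET 762 it was 6 in the reported fit, 3 with the 1.5-fold limit, and 5 to 6 when a library was left out. Between the inhibitors it was 4, against 1 with the 1.5-fold limit, 2 among genes with a mean of at least 100, and 2 to 5 when a library was left out, the lowest without I-BET 762 replicate 21. At equal totals, where SDC4 with I-BET 762 lost its call, the log2 difference of GPC1 turned to -0.18 with JQ1 and -0.01 (-0.00887) with I-BET 762, GPC3 (adjusted p = 0.0425) and GPC4 (0.0354) became called with JQ1, and between the inhibitors SDC3 (0.0168) and GPC2 (0.0368) did. GPC1 with JQ1 also turned to -0.062 at equal upper quartiles and ran from -0.043 to 0.082 when a library was left out, below 0 without vehicle replicate 14 or 15 or JQ1 replicate 17 or 19. GPC4 between the inhibitors ran from -0.43 to 0.092 when a library was left out, above 0 without JQ1 replicate 18 alone. GPC4 with JQ1 was called without an intensity trend (adjusted p = 0.0461). The cause was not tested. SDC1, SDC2, SDC3, SDC4, GPC2 and GPC6 kept their direction and call with JQ1 under every alternative that tested them, except that SDC3 (-0.54) and GPC2 (-0.55) are under the 1.5-fold limit, with SDC2 from 2.03 to 2.32, SDC1 from -1.71 to -1.49, SDC4 from 0.44 to 0.65 and GPC6 from -1.63 to -1.36 (log2). Chosen after seeing the data were the family shares without JQ1 replicate 18, the JQ1 count over members with a mean of at least 100 (5 called), and the pools, lists and DEGs among the members at other scalings. Levels per kilobase moved by more than the spread between replicates in 27 of 54 cases, mostly with the longest transcript. GPC3 and GPC4 rest on 3 to 20 reads per library, and no JQ1 library of either reached the filter on low values. No paired analysis was possible because the replicate numbers differ between all groups.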
